A study of Mus musculus with 6 samples.

Results

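The genes described here are 9 genes of retinoid metabolism, Stra6, Dhrs9, Aldh1a1, Aldh1a2, Aldh1a3, Crabp1, Crabp2, Rarg and Cyp26b1, chosen by symbol from the 32285 genes counted in every library. All 9 were found. The study followed mouse dorsal skin after depilation, which brings resting hair follicles into growth, in wildtype FVB males aged p55 to p57. There were 6 libraries of single cells, taken 0, 4 and 16 h and 2, 4 and 6 d after the skin had been shaved and waxed. Each library held the cells of 2 mice, digested apart and then mixed in equal numbers, so each time point was 1 sample. A difference between 2 time points therefore had no replicate, whereas cell types could be compared within the 6 libraries.

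Vitamin A reaches cells as retinol and is turned into retinoic acid in 2 oxidation steps, by retinol dehydrogenases such as Dhrs9 and then by the retinal dehydrogenases Aldh1a1, Aldh1a2 and Aldh1a3. Stra6 is the membrane receptor that takes up retinol from its plasma carrier. Crabp1 and Crabp2 bind retinoic acid in the cytoplasm, and Crabp2 hands it to nuclear receptors, of which Rarg is the main retinoic acid receptor of epidermis. Cyp26b1 breaks retinoic acid down. In skin, retinoids act on the differentiation of epidermis and sebaceous gland and on the hair cycle.

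On GRCm38, Stra6 (ENSMUSG00000032327) lay at chr9:58063788-58153996 on the plus strand and overlapped Gm16131 on the same strand. Dhrs9 (ENSMUSG00000027068) lay at chr2:69380445-69404533, plus strand. Aldh1a1 (ENSMUSG00000053279) was at chr19:20492715-20643465, plus strand, and Aldh1a2 (ENSMUSG00000013584) at chr9:71215789-71296243, plus strand. Aldh1a3 (ENSMUSG00000015134) was at chr7:66390890-66427517, minus strand. Crabp1 (ENSMUSG00000032291) was at chr9:54764748-54773110 and Crabp2 (ENSMUSG00000004885) at chr3:87948666-87953376, both on the plus strand. Rarg (ENSMUSG00000001288) was at chr15:102234938-102257517 and Cyp26b1 (ENSMUSG00000063415) at chr6:84571414-84593908, both on the minus strand. Reads were counted at the 3' end, so each level below is a count of unique molecular identifiers (UMIs, 1 per captured RNA) for the gene, divided by all UMIs of the same cells and scaled to the common CPM unit. In the last 400 transcript bases, 15.1% of the 31-base words of Aldh1a1 were shared with Aldh1a7, and its low counts are uncertain for that reason. For Aldh1a3, 6.69% of such words were shared with transcripts of 596 other genes, and for the other members the share with any gene was 0.

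The 250 bases before the start site are shown for 3 members whose levels turned on time or cell type below, Dhrs9, Cyp26b1 and Crabp1 (RefSeq, GRCm38.p6, written along the gene's strand). Capitals mark a match to an AP-1 site (TGACTCA) or to a half-site of the retinoic acid receptors (AGGTCA or AGTTCA or GGGTCA or GGTTCA), each sought on both strands.
Dhrs9, chr2:69380212-69380461, plus strand: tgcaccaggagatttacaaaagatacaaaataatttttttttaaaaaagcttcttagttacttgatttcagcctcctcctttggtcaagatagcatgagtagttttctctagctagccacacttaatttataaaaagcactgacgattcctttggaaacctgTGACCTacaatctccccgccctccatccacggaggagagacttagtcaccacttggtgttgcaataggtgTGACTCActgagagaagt
Cyp26b1, chr6:84593811-84594060, minus strand: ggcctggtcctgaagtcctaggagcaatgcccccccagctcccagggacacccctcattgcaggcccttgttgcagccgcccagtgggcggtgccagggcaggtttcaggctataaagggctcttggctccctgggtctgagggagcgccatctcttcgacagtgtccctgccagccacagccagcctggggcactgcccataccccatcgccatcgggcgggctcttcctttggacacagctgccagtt
Crabp1, chr9:54764498-54764747, plus strand: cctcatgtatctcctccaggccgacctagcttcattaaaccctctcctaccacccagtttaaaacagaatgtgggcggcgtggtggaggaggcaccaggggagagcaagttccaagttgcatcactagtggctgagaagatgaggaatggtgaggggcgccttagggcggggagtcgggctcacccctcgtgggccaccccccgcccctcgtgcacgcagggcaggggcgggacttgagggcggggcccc
The windows of Dhrs9 and Cyp26b1 reached into the gene spans given above, which follow another annotation than RefSeq. The Dhrs9 window held an AP-1 match 18 bases before the RefSeq start and a half-site match on its minus strand 88 bases before it. The windows of Cyp26b1 and Crabp1 held neither. Of all 32851 such windows, 4.46% held the AP-1 letters and 38.6% a half-site, and among the 12 windows of the 7 members with an entry these were found in 2 and 3. Pairs of half-sites in the same direction, spaced by 1, 2 or 5 bases, were found in 0 of the 12. Of all windows 0.164%, 0.174% and 0.0883% held such a pair, so the count of 0 says nothing particular to the members.

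The libraries held 61031 barcodes, of which 50502 were analysed after a filter on genes and mitochondrial reads and the removal of predicted doublets. Their total UMI counts ranged from 72634390 to 112370376, and the median per analysed cell from 6032 at 4 d to 10528 at 16 h. Any 2 libraries shared 7 to 47 barcodes. Cells were clustered without the retinoid genes and the cell cycle genes, and clusters took the name of the cell type whose fixed markers they carried: basal and suprabasal interfollicular epidermis (IFE.B, IFE.SB), basal and suprabasal upper hair follicle (uHF.B, uHF.SB), outer bulge (OB1 to OB3), inner bulge (IB), inner root sheath and matrix (IRS1 to IRS3), sebaceous gland (SG), dermal papilla and fibroblast (DP), T cell, Langerhans cell and melanocyte. These are names by marker only. Among the 10 leading genes of IFE.B were 1 of its own markers (Thbs1) and 1 of uHF.B (Fcgbp). HF cluster 10, summed with OB1, had 0 of the OB1 markers in its 10. IRS2 had 1 of its own (Cux1) in its 10, and it already held 33, 39 and 69 cells at 0 h, 4 h and 16 h. IB held 20, 113, 94 and 113 cells at 0 h, 4 h, 16 h and 6 d. With the clustering resolution doubled, these were 21, 23, 55 and 111 cells. The part of this change in the IB levels was not tested. HF clusters 2 and 12 had at least 3 uHF.SB markers raised and scored as uHF.SB. They stayed unnamed, since their leading genes held markers of IFE.SB and none of uHF.SB. The median of HF cluster 12 ran from 7661 to 37913 UMIs per cell, against 5192 to 8264 in uHF.SB. T cells, Langerhans cells and melanocytes served to show the level that free RNA could give, at median depths of 1824 to 5058 UMIs. The 4 h library stood apart: in uHF.B, 3.76% of genes were at least 2-fold above and 13.4% at least 2-fold below their level in every other library.

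Most members were concentrated in a few cell types. Averaged over libraries, Stra6 was highest in suprabasal upper follicle and HF cluster 2, Crabp1 in the dermal cluster, and Crabp2, among the named types, in suprabasal upper follicle, inner bulge and suprabasal epidermis. The unnamed HF cluster 12, with 21 cells at 16 h and 44 at 6 d, had means of 912 CPM of Crabp2, 49.4 CPM of Aldh1a3 and 22.0 CPM of Dhrs9, and the part of its high UMI counts, or of doublets, in these levels was not tested. Cyp26b1 was high in the dermal cluster, inner bulge, basal upper follicle and basal epidermis, and Rarg was spread over all keratinocytes. By source, a median of 54.7% of the Dhrs9 UMIs of a library came from IFE.SB, 43.2% of the Cyp26b1 UMIs from IFE.B and 21.2% from uHF.B, and 55.9% of the Crabp1 UMIs from the few DP cells. These types differed in size: of the 50502 analysed cells, IFE.B held 16808, IFE.SB 7704, uHF.B 6047 and DP 208. A large share of UMIs from a large type does not by itself show a high level there.

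**Figure D1:**
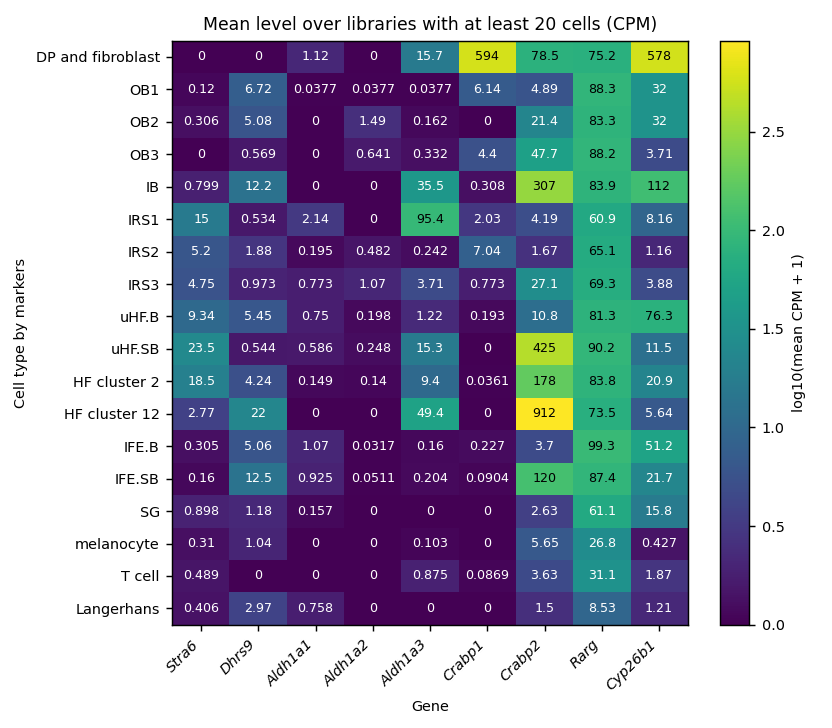
Mean level (CPM, on a log colour scale) of the 9 members in the 18 cell types and unnamed clusters, each the mean over the libraries with enough cells of that type. Rarg was present in every keratinocyte type, whereas Crabp1 was concentrated in the dermal cluster.

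Stra6, the retinol receptor, was highest in the upper follicle. In uHF.SB its level was 19.3, 13.4, 3.09, 16.3, 70.1 and 18.7 CPM in the 6 libraries in order of time, from 13, 7, 6, 55, 345 and 69 UMIs. In uHF.B it was 1.25, 4.17, 2.39, 9.34, 26.1 and 12.8 CPM. The level at 4 d stood above every other library in both types, and the order of the libraries was otherwise not the same in the 2. In HF cluster 2 the course was 1.42, 2.13, 1.52, 16.3, 70.2 and 19.4 CPM. IFE.B did not pass 1.41 CPM and IFE.SB did not pass 0.616 CPM in any library, and OB3 and DP had no Stra6 UMI in sums of enough cells. IRS1 also carried it, with 8.57 CPM at 4 d and 21.4 CPM at 6 d (31 and 20 UMIs), and IRS3 had a mean of 4.75 CPM (34 UMIs). In IRS2 the mean of 5.20 CPM rested on 22 UMIs over 6 libraries, with the highest level, 17.1 CPM, at 4 h and 0 at 6 d.

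Cells thinned to 2000 UMIs gave the same picture. At 4 d, 9.42% of uHF.SB cells had a Stra6 UMI (exact 95% interval 7.49 to 11.6%, counting error only, like all intervals here), against 0.465% at 16 h and 2.87 to 3.80% in the other libraries. Unthinned shares were 18.6% at 4 d and 2.78 to 8.75% elsewhere. No thinned T cell, Langerhans cell or melanocyte had one. The Poisson intervals at 4 d (62.9 to 77.9 CPM) and 6 d (14.5 to 23.6 CPM) in uHF.SB did not overlap. A level at least 2-fold above every other library at 4 d was rare among all genes tested, at 0.0401% in uHF.SB, 0.0576% in HF cluster 2 and 0.0856% in uHF.B, and Stra6 met it in all 3.

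Across cell types Stra6 differed beyond the spread between libraries. It was higher in uHF.SB than in uHF.B in 6 of 6 libraries (log2 fold change 1.29 ± 0.29, SE; edgeR adjusted p = 0.0033), where 56.2% of all genes tested differed, 26.7% higher and 29.5% lower. It was higher in uHF.B than in IFE.B in 6 of 6 (5.17 ± 0.35, adjusted p = 4.2e-06), in a comparison that called 36.5% of genes, 16.2% higher and 20.3% lower. Between uHF.SB and IFE.SB, where 38.7% of genes were called, the difference was 6.53 ± 0.51 (adjusted p = 6.5e-06). OB1 held almost none: the ratio of uHF.B to OB1 over all libraries was 85.8 (95% interval of the counts 23.6 to 710), and the comparison called 36.5% of genes. IRS3 exceeded OB1 in 3 of 3 libraries by a ratio of 48.6 (95% interval 8.15 to 1974; adjusted p = 0.0028). Within uHF.B, HF cluster 0 exceeded HF cluster 5 by 0.98 ± 0.19 (adjusted p = 0.0010; background 25.4%).

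**Figure D2:**
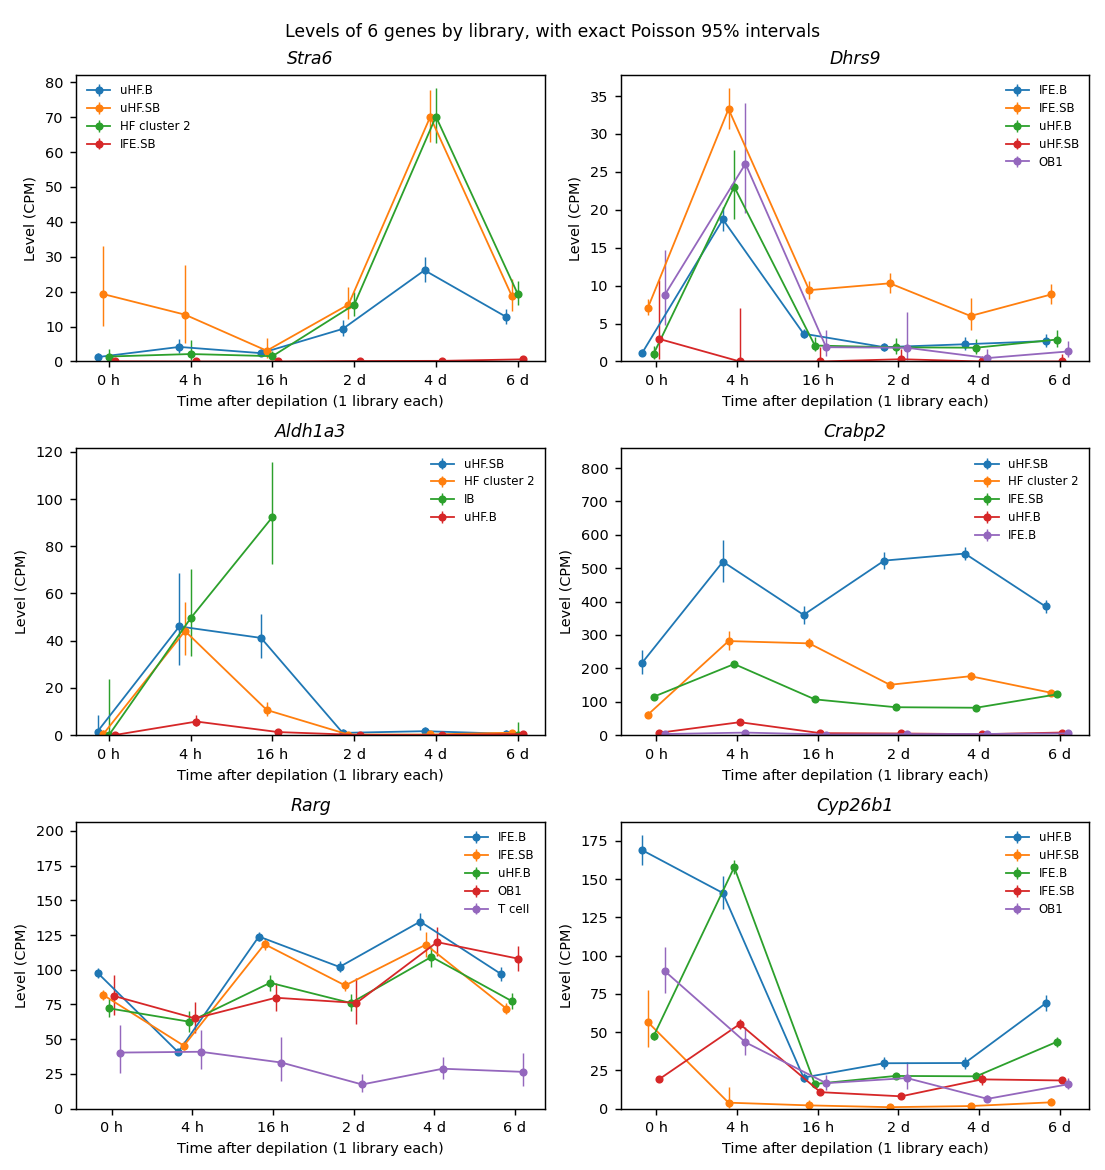
Level (CPM) of 6 members in selected cell types at each of the 6 time points, 1 library each, with 95% Poisson intervals of the UMI counts as bars; lines break where a library had too few cells. Stra6 reached 70.1 CPM in uHF.SB at 4 d, Dhrs9 was highest at 4 h in epidermis, and Cyp26b1 was lower from 16 h on than at 0 h in uHF.B.

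Dhrs9, a dehydrogenase of the retinol step, had most of its UMIs in suprabasal epidermis and was highest in the 4 h library in several cell types. In IFE.SB its level was 7.08, 33.3, 9.40, 10.3, 6.00 and 8.84 CPM from 0 h to 6 d. In IFE.B it was 1.14, 18.7, 3.66, 1.88, 2.27 and 2.68 CPM, and in uHF.B it was 0.972, 23.0, 2.10, 1.87, 1.82 and 2.89 CPM. The 4 h library was the high one in each, and the other 5 kept within a narrower band. OB1 had 8.79, 26.1, 1.88, 1.81, 0.452 and 1.32 CPM, and at 4 h its 2 clusters differed, with 48.9 CPM in HF cluster 10 and 9.36 CPM in HF cluster 1. All 282 OB1 cells at 0 h were of HF cluster 1, so that cluster had 8.79 CPM at 0 h and 9.36 CPM at 4 h. Nearly all cells of HF cluster 10 came from 4 h and 16 h. Its part in the OB1 level and time course was not tested.

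The 4 h level was at least 2-fold above every other library in IFE.B, IFE.SB, uHF.B, OB1 (with HF clusters 1 and 10 summed) and HF cluster 2. Among all genes this held for 5.85% in IFE.B, 5.17% in IFE.SB, 3.76% in uHF.B, 2.07% in OB1 and 4.63% in HF cluster 2. In IFE.SB the share of cells with a Dhrs9 UMI after thinning was 5.15% at 4 h (exact interval 3.97 to 6.55%) and 0.770 to 1.37% in the other libraries. Unthinned it was 25.6% at 4 h and 5.59 to 12.05% elsewhere. T cells had no Dhrs9 UMI in any library. Langerhans cells reached 11.4 CPM at 4 h (8 UMIs, thinned share 1.85%, unthinned 4.22%) and melanocytes 6.24 CPM there (1 UMI), against at most 3.57 CPM and 0 in their other libraries. The level in these cells was thus also highest at 4 h, and in HF cluster 2, at 9.95 CPM, it was no higher than in Langerhans cells. SG had 5.22 CPM at 4 h and at most 0.335 CPM in the other libraries. The part of free RNA in the 4 h levels was not tested.

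Dhrs9 differed in opposite directions between suprabasal and basal cells of epidermis and of upper follicle, with the upper follicle clusters as named here. It was higher in IFE.SB than in IFE.B in 6 of 6 libraries (1.85 ± 0.26, adjusted p = 2.6e-04), in a comparison that called 63.4% of genes, 29.9% higher and 33.5% lower. In uHF.SB only 3 Dhrs9 UMIs were counted in all libraries together, 2 at 0 h and 1 at 2 d. The ratio of uHF.B to uHF.SB was 20.2 (95% interval of the counts 6.80 to 98.6; edgeR log2 fold change -3.57 ± 0.76, adjusted p = 0.0014, uHF.SB being higher in 1 of 6 libraries, 0 h, at 2.97 against 0.972 CPM), and that of IFE.SB to uHF.SB was 63.4 (21.6 to 308). HF cluster 2 carried more than uHF.SB, with a ratio of 18.2 (6.05 to 90.1; adjusted p = 3.1e-04; background 30.8%). When HF clusters 2 and 12 were both counted as uHF.SB, the difference from uHF.B turned to 0.49 (adjusted p = 0.112). The lack of Dhrs9 was thus that of the cluster named uHF.SB. HF clusters 2 and 12, which also had at least 3 uHF.SB markers raised, did not share it. Within IFE.SB, skin cluster 8 exceeded skin cluster 2 in every library, by a difference that edgeR put at -2.14 ± 0.18 for cluster 2 against 8 (adjusted p = 4.1e-06), where 59.7% of genes were called. At 4 h these clusters stood at 58.2 and 15.7 CPM.

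The difference between the 2 suprabasal steps was itself tested. For Dhrs9 the log2 step from uHF.B to uHF.SB was 5.62 ± 0.79 below that from IFE.B to IFE.SB, in 6 of 6 libraries (edgeR interaction, adjusted p = 4.1e-05). Of all genes tested, 23.1% showed a difference of this kind and 13.7% one in this direction. Cyp26b1 was the other member that did, with a step 2.40 ± 0.63 lower in the upper follicle in 6 of 6 libraries (adjusted p = 0.0098). For Cyp26b1 the adjusted p was 0.050 without the 4 d library, 0.063 without the 6 d library and 0.112 with HF clusters 2 and 12 joined to uHF.SB. For Dhrs9 the same joining brought the difference to -1.46 (adjusted p = 0.023). Stra6, Aldh1a1, Aldh1a3, Crabp2 and Rarg did not pass, with adjusted p from 0.247 to 0.976, and Aldh1a2 and Crabp1 were too low to be tested.

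The retinal dehydrogenases were scarce, apart from Aldh1a3. Aldh1a1 had 42, 4, 54, 33, 10 and 19 UMIs in IFE.B and 30, 10, 28, 21, 8 and 8 in IFE.SB, or 0.128 to 1.55 CPM in IFE.B. Its low point at 4 h in IFE.B was at least 2-fold below every other library, as were 15% of all genes. Within IFE.SB it was higher in skin cluster 2 than in skin cluster 8 in 6 of 6 libraries (2.02 ± 0.44, adjusted p = 0.0024). Aldh1a2 had 1 to 12 UMIs per library over all cells, too few for any comparison.

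Aldh1a3 appeared in a few places and at few times. In uHF.SB its level was 1.49, 46.0, 41.1, 0.889, 1.63 and 0.541 CPM, from 1, 24, 80, 3, 8 and 2 UMIs. The 4 h and 16 h libraries were high and the others low. At 4 h the UMIs came from 5 of 82 cells and 58.3% of them from a single cell, whereas at 16 h they came from 24 of 216 cells. In IB it was 0, 49.5 and 92.4 CPM at 0 h, 4 h and 16 h and 0 at 6 d, the 2 libraries between having too few cells. Which cells made up IB at 4 h and 16 h changed with the clustering resolution, as given above. In IRS1, present from 4 d, it was 6.08 CPM at 4 d and 185 CPM at 6 d. That last value rested on 173 UMIs in 28 of 116 cells, with at most 31 in any cell.

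After thinning, 17.1% of IRS1 cells had an Aldh1a3 UMI at 6 d (exact interval 10.6 to 25.4%) and 0.785% at 4 d (0.162 to 2.28%). The unthinned shares were 24.1% and 4.13%. In T cells the thinned share did not pass 0.474%. In OB1 its level was above 0 in 1 library, at 0.226 CPM on 4 d.

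Aldh1a3 was higher in uHF.SB than in uHF.B in 6 of 6 libraries (3.81 ± 0.51, adjusted p = 4.6e-05). Against IFE.SB the difference was 5.40 ± 1.39 (adjusted p = 0.016, higher in 5 of 6 libraries), and the adjusted p was 0.066 with no filter on low counts and 0.053 with predicted doublets kept. OB1 had no UMI in the 4 libraries compared with IB, in a comparison that called 13.3% of genes. The pooled IB level, 47.0 CPM, was 189.8-fold a floor of 3 UMIs for OB1, which leaves out the counting error of IB. The IB level rested on 2 of 4 libraries, from 9 cells at 4 h and 13 at 16 h. DESeq2 gave an adjusted p of 0.205 where edgeR gave 0.0013. Pooled over 3 libraries, the ratio of IRS3 to OB1 was 57.1 (95% interval 9.68 to 2312), with IRS3 higher in 2 of the 3. That comparison called 23.4% of genes. At 4 d, 12 of the 26 UMIs in IRS3 came from 1 cell. In DP, with 2 of 5 libraries above 0, the fitted difference from uHF.B was 3.42 ± 0.93 (adjusted p = 0.0013), which became 0.445 without the 4 d library and 0.058 with DESeq2.

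Crabp1, the carrier tied to retinoic acid turnover, marked the dermal cluster. In DP its level was 775, 561, 258, 28.5, 525 and 663 CPM from 0 h to 6 d. It was found in 11 of 18, 8 of 17, 5 of 14, 1 of 8, 87 of 126 and 19 of 25 cells. The value at 2 d was 1 UMI of 8 cells. Each other library had at least 12 UMIs, and in each of them the level exceeded that in uHF.B. The DP marker list was present in the cluster (5 of 7 markers raised, 0 of 7 at 0, 6425 CPM in sum), but markers of uHF.B also summed to 2807 CPM and those of IFE.B to 2045 CPM there. Their part in the levels of DP was not tested.

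**Figure D3:**
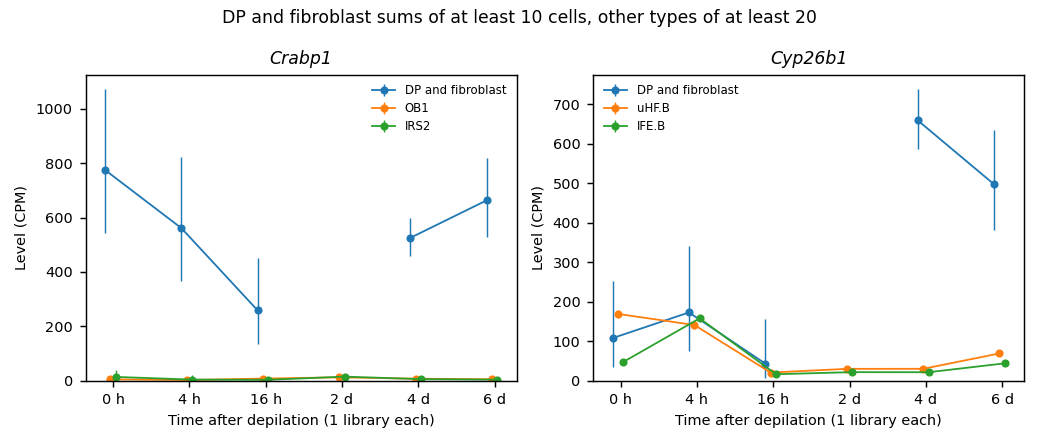
Crabp1 and Cyp26b1 levels (CPM, linear axis) in the dermal cluster of each library with at least 10 of its cells, beside OB1 and IRS2 for Crabp1 and uHF.B and IFE.B for Cyp26b1, with 95% Poisson intervals as bars. Crabp1 ran from 258 to 775 CPM in the dermal cluster and did not pass 14.4 CPM in OB1 and IRS2.

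Over the 5 libraries with 10 or more DP cells Crabp1 averaged 556 CPM in DP and 0.232 CPM in uHF.B (log2 fold change 10.31 ± 0.48, edgeR adjusted p = 2.1e-100). That comparison called 30.8% of genes. It left 4 residual df, and its p-values lean on a spread that edgeR shares over all genes. Their size is therefore not a measure of the spread of Crabp1 alone between the 5 libraries. Among keratinocytes Crabp1 was seen mainly in OB1, OB3 and IRS2, a type with 1 of its own markers among its 10 leading genes. OB1 had 4.40, 1.97, 7.20, 11.8, 6.79 and 4.72 CPM and IRS2 had 13.3, 3.42, 2.76, 14.4, 5.19 and 3.16 CPM, with no common order of the libraries. OB1 exceeded uHF.B in 6 of 6 libraries (4.59 ± 0.59, adjusted p = 2.3e-04) and exceeded IRS3 by a ratio of 23.8 (95% interval 6.34 to 201). In OB1, 4 to 24 cells per library had a Crabp1 UMI. They carried more of the DP marker list than the other cells in 6 of 6 libraries, with 328 to 1057 CPM in sum against 192 to 942 CPM. That list includes Sparc, also a leading gene of HF cluster 1 of OB1, so the sum cannot tell dermal RNA from OB1 RNA. The part of RNA from dermal cells in the OB1 level was not tested. No Crabp1 UMI was counted in uHF.SB, SG, OB2, Langerhans cells or melanocytes in sums of enough cells. In the 4 d uHF.SB sum a count of 0 allowed up to 0.610 CPM.

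Crabp2, the carrier that passes retinoic acid to its receptors, was suprabasal in both epidermis and upper follicle. In uHF.SB its level was 217, 519, 360, 523, 544 and 385 CPM, and in uHF.B it was 6.66, 38.4, 5.54, 4.53, 2.42 and 7.48 CPM. In IFE.SB it was 115, 213, 107, 83.3, 81.7 and 122 CPM, against 1.49 to 7.22 CPM in IFE.B. The groups did not overlap in either tissue. The 4 h library was the high one in uHF.B, by 5.13-fold over the next, and the low one in uHF.SB was 0 h.

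The difference was 5.79 ± 0.64 between uHF.SB and uHF.B (adjusted p = 7.0e-04) and 5.31 ± 0.20 between IFE.SB and IFE.B (adjusted p = 1.8e-07), each in 6 of 6 libraries. These steps did not differ from each other past the threshold (0.46 ± 0.53, adjusted p = 0.592). Crabp2 was also higher in uHF.SB than in IFE.SB (1.62 ± 0.26, adjusted p = 8.7e-04, 6 of 6). In the bulge it was higher in OB2 than in OB1 (2.03 ± 0.29, adjusted p = 3.9e-05), in OB3 than in OB1 (3.13 ± 0.24, adjusted p = 6.7e-11) and in IB than in OB1 (5.80 ± 0.58, adjusted p = 0.0010). These comparisons called 19.9%, 14.8% and 13.3% of all genes. OB1 itself stayed between 3.39 and 5.90 CPM, while IB had 262, 55.9, 427 and 483 CPM at 0 h, 4 h, 16 h and 6 d. The cells of IB at 4 h and 16 h changed with the clustering resolution, as given above. T cells reached 8.39 CPM and melanocytes 13.1 CPM.

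The smaller differences of Crabp2 were less secure. It was higher in uHF.B than in IFE.B in 5 of 6 libraries (1.11 ± 0.33, adjusted p = 0.028), and the adjusted p was 0.064 with no filter, 0.063 without 0 h, 0.053 without 4 h and 0.095 without 16 h. In SG it was lower than in uHF.B in 5 of 5 libraries (-1.64 ± 0.58, adjusted p = 0.047; background 49.5%). DP exceeded uHF.B in 4 of 5 libraries (2.32 ± 0.51, adjusted p = 4.4e-05), with an adjusted p of 0.217 without the 4 d library. HF cluster 2 had less than uHF.SB in 6 of 6 libraries (-1.21 ± 0.20, adjusted p = 0.0018), and within IFE.SB skin cluster 2 had less than skin cluster 8 (-3.61 ± 0.19, adjusted p = 4.7e-07), which is the cluster that also had more Dhrs9.

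**Figure D4:**
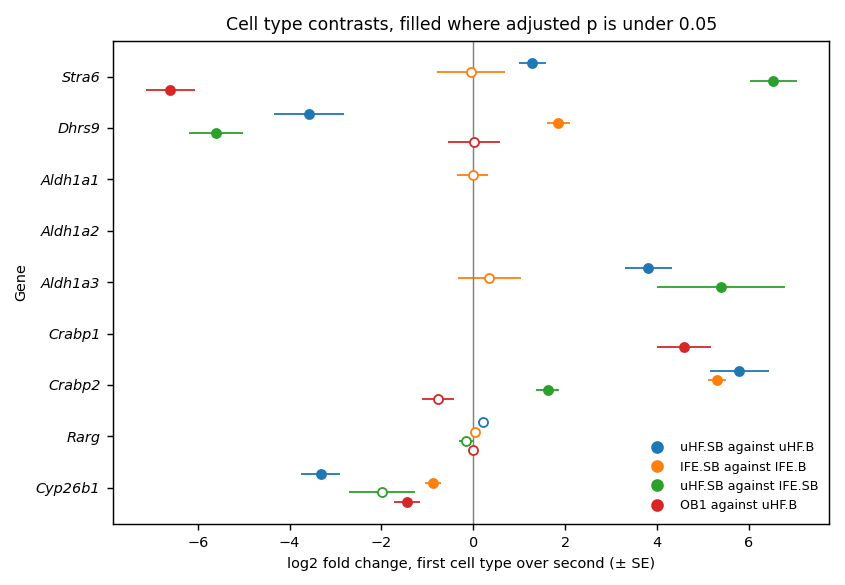
Log2 fold change with its SE (bars) of the members tested in 4 cell type comparisons, from edgeR with the library as a block; filled points had an adjusted p below 0.05. Crabp2 was 5.79 higher in uHF.SB than in uHF.B and 5.31 higher in IFE.SB than in IFE.B, while Dhrs9 lay on opposite sides of 0 in the 2.

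Rarg, the receptor, was level across keratinocytes. In IFE.B it was 97.8, 40.6, 124, 102, 135 and 97.0 CPM, in IFE.SB 81.8, 45.2, 118, 88.7, 118 and 71.9 CPM, and in uHF.B 72.2, 62.5, 90.6, 76.0, 109 and 77.3 CPM. The 4 h library was the lowest in each. In uHF.SB the levels were 77.2, 92.0, 108, 64.3, 107 and 92.5 CPM, where 2 d was the lowest. At 4 h the level in IFE.B was at least 2-fold below that of every other library, which was so for 15% of genes. T cells had 17.3 to 40.9 CPM Langerhans cells 0 to 13.7 CPM and melanocytes 3.18 to 52.3 CPM.

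No difference in Rarg passed the threshold between uHF.SB and uHF.B (0.20 ± 0.09, adjusted p = 0.080), IFE.SB and IFE.B (0.03 ± 0.06, adjusted p = 0.686), uHF.B and IFE.B (-0.34 ± 0.13, adjusted p = 0.071) or OB1 and uHF.B (-0.02 ± 0.11, adjusted p = 0.922). It was lower in SG than in uHF.B in 4 of 5 libraries (-0.49 ± 0.13, adjusted p = 0.012). It was lower in IRS3 than in OB1 in 3 of 3 (-0.50 ± 0.14, adjusted p = 0.028), where DESeq2 gave 0.183.

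Cyp26b1, which degrades retinoic acid, was higher in basal than in suprabasal cells of epidermis and upper follicle. Its level in the 16 h library was below that at 0 h in most epithelium. In uHF.B it was 169, 141, 20.2, 29.6, 29.8 and 68.7 CPM, in IFE.B 47.2, 158, 16.1, 21.3, 21.1 and 43.6 CPM, and in OB1 89.8, 43.3, 16.6, 19.9, 6.33 and 15.9 CPM. The 0 h and 4 h libraries were the highest in uHF.B, IFE.B and OB1. In uHF.SB 56.4 CPM at 0 h was followed by 0.889 to 4.06 CPM, and in IB 390 CPM at 0 h by 9.59, 14.8 and 33.2 CPM at 4 h, 16 h and 6 d. The IB value at 0 h rested on 61 UMIs in 20 cells (Poisson interval 298 to 501 CPM). At 4 h the 113 cells of IB were 23 with the clustering resolution doubled. The part of this in the course of IB was not tested.

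In uHF.B, 21.9% of thinned cells had a Cyp26b1 UMI at 0 h (exact interval 19.2 to 24.6%), 19.9% at 4 h and 2.74% at 16 h. At 6 d the share was 9.63% (8.05 to 11.4%). The unthinned shares were 43.5, 42.6, 13.6 and 23.1%. In T cells the thinned share did not pass 1.68%, and in Langerhans cells 2.33%. In IFE.B and IFE.SB the 4 h level was at least 2-fold above every other library (background 5.85% and 5.17%), and in OB1 and uHF.SB the 0 h level was (background 1.35% and 3.08%).

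Cyp26b1 was lower in uHF.SB than in uHF.B in 6 of 6 libraries (-3.32 ± 0.42, adjusted p = 5.0e-04) and lower in IFE.SB than in IFE.B in 6 of 6 (-0.87 ± 0.18, adjusted p = 0.0026). It was lower in OB1 than in uHF.B (-1.45 ± 0.28, adjusted p = 0.0039), in OB3 than in OB1 (-3.45 ± 0.36, adjusted p = 3.1e-08) and in SG than in uHF.B (-2.56 ± 0.50, adjusted p = 0.0037), each in all libraries compared. Between uHF.B and IFE.B it did not pass (0.49 ± 0.24, adjusted p = 0.152). Among suprabasal clusters, HF cluster 2 exceeded uHF.SB in 5 of 6 libraries (1.69 ± 0.44, adjusted p = 0.021; background 30.8%). IFE.SB skin cluster 2 had less than skin cluster 8, being higher in 1 of 6 (-1.72 ± 0.48, adjusted p = 0.020; background 59.7%). Within uHF.B, HF cluster 5 had 242, 190, 39.8, 69.6, 71.0 and 155 CPM and HF cluster 0 had 65.3, 93.0, 13.8, 9.77, 14.0 and 15.5 CPM, a difference of -2.22 ± 0.36 for cluster 0 against 5 (adjusted p = 0.0081). Cluster 0 was the lower in every library.

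In the dermal cluster Cyp26b1 was 108, 173, 43.0, 28.5, 659 and 497 CPM. The 2 high libraries, 4 d and 6 d, had 126 and 25 DP cells, and 14 and 8 cells were behind the 2 low ones. DP and uHF.B did not differ past the threshold over the 5 libraries with enough cells (1.21 ± 0.87, adjusted p = 0.364). At 4 d 60.9% of thinned DP cells had a UMI (exact interval 51.1 to 70.1%), unthinned 73.8%.

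Over the time course as a whole, 39 sums of a member in a cell type could be fitted with a smooth curve of time. With hours as the scale 0 of the 39 passed in edgeR, 8 had an unadjusted p below 0.05, and the smallest adjusted p was 0.280 for Stra6 in uHF.SB. In the background, this fit called 0% of all genes in uHF.SB, uHF.B, IFE.B and IFE.SB, 0.00943% in OB1, 0.0096% in HF cluster 2, 0.173% in OB3, 2.95% in IRS2, 0.0514% in T cells, 0.0492% in Langerhans cells and 3.87% in melanocytes, and 0.0175% with the outer bulge taken as 1 type. DESeq2 called 4 of the 39, namely Stra6 in uHF.SB (adjusted p = 0.028) and in HF cluster 2 (3.3e-08), Dhrs9 in OB1 (0.048) and Cyp26b1 in uHF.SB (9.6e-04). With log2(hours + 1) as the scale edgeR called 5. They were Aldh1a3 in uHF.SB (adjusted p = 0.0011) and HF cluster 2 (0.029), Cyp26b1 in uHF.SB (0.0013) and OB1 (0.0086), and Dhrs9 in OB1 (0.0027), where 6.42%, 0.048% and 14.8% of all genes were called in uHF.SB, HF cluster 2 and OB1. The same scale called 0.0402% of genes in IFE.SB, 6.77% in IRS2 and 0.0984% in Langerhans cells. On the scale of ranked time points 4 passed, Aldh1a3 and Cyp26b1 in uHF.SB and Dhrs9 and Cyp26b1 in OB1, where 1.29% and 5.27% of genes passed, beside 0.0096% in HF cluster 2, 0.0241% in IFE.SB, 3.19% in OB3, 0.0257% in T cells and 7.61% with the outer bulge taken as 1 type.

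Counting libraries instead of fitting a curve, the 4 h library was at least 2-fold above every other in 9 of the 39 sums, the 4 d library in 3 and the 0 h library in 2. The 9 at 4 h were Dhrs9 in IFE.B, IFE.SB, uHF.B, OB1 and HF cluster 2, Cyp26b1 in IFE.B and IFE.SB, Crabp2 in uHF.B and Aldh1a3 in HF cluster 2. Among all genes this held for 2.07% (OB1) to 5.85% (IFE.B) in these types at 4 h. The 3 at 4 d were all Stra6, in types where 0.0401% (uHF.SB) to 0.0856% (uHF.B) of all genes met it. The 2 at 0 h were Cyp26b1 in OB1 and uHF.SB, beside 1.35% and 3.08% of all genes. The libraries at 16 h, 2 d and 6 d had 0 such sums. At 4 h, 3 sums were instead at least 2-fold below every other library, in IFE.B and OB1, as were 15% and 12.3% of all genes there.

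Cells with at least 2 UMIs of cycling markers were compared with the other cells of their type in each library. In uHF.B, where 31.2% of genes were called, Cyp26b1 was lower in cycling cells in 6 of 6 libraries (-0.45 ± 0.08, adjusted p = 4.6e-05). Crabp2 was lower in 6 of 6 (-0.61 ± 0.18, adjusted p = 0.0079), which became 0.190 with at least 4 UMIs, and Dhrs9 in 4 of 6 (-0.81 ± 0.31, adjusted p = 0.048). In OB1 (background 5.57%) and IFE.B (43.2%) edgeR called 0 members, 2 of them in OB1, Rarg (adjusted p = 0.244) and Cyp26b1 (adjusted p = 0.287), being below 0.05 before adjustment.

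Cell types were also set in the order of their mean level for each member, and each type was compared with the next in that order by an exact sign-flip permutation test over libraries on log2(CPM + 1). Of 153 neighbouring pairs 141 could be tested, and the smallest unadjusted p was 0.0625. Only the 72 pairs with 6 libraries could reach 0.031, so no pair could pass once adjusted over the 141, and the order stands as a description. Among neighbours that edgeR also compared, Aldh1a3 in HF cluster 2 was lower than in uHF.SB (-0.99 ± 0.35, adjusted p = 0.047, lower in 5 of 6 libraries), which became 0.591 without the 16 h library. The adjusted p was 0.086 with DESeq2, 0.068 without 0 h, 0.083 without 2 d and 0.095 without 4 d. The other neighbours compared in this way did not pass, with adjusted p from 0.152 for Cyp26b1 in uHF.B and IFE.B to 0.985 for Dhrs9 in OB1 and uHF.B.

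The other retinoid genes of the list numbered 32. In uHF.SB against uHF.B, 11 of the 22 tested were higher and 2 lower, beside 26.7% and 29.5% of all genes. Carriers and storage enzymes were among the higher: Lrat, which esterifies retinol (5.58), Rbp2 (2.86), Fabp5 (2.00) and the ester synthase Awat2 (2.47). Rdh1 (2.94) and Rdh12 (2.49), 2 retinol dehydrogenases, Aldh1a7 (3.18), Dhrs3 (0.59), which reduces retinal back to retinol, Ppard (0.70) and Rarres1 (3.55) were also higher. Adh7 (-2.02) and Tgm2 (-2.41) were lower. Of the genes known to be induced by retinoic acid, Dhrs3, Lrat and Rarres1 were thus higher and Tgm2 lower.

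In IFE.SB against IFE.B, 18 of 23 were higher and 1, Dgat1 (-0.38), was lower, beside 29.9% and 33.5% of all genes. They included 7 of 9 enzymes of retinol oxidation, among them Rdh1 (6.15), Rdh16 (6.15) and Adh1 (4.53), all 4 carriers tested, with Fabp5 at 4.43 and Rbp2 at 4.39, and the carotene oxygenases Bco1 (4.29) and Bco2 (1.94). Basal upper follicle exceeded basal epidermis in 7 of 21, among them Tgm2 (4.44) and Adh7 (3.03, 128 against 15.1 CPM), and 7 of 21 were lower, among them Aldh1a7 (-1.58), beside 16.2% and 20.3% of all genes.

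SG, where each of the 5 members tested was lower than in uHF.B (Stra6 -3.27, Dhrs9 -2.71, Cyp26b1 -2.56, Crabp2 -1.64 and Rarg -0.49; background 24.6% lower), had 16 of the 23 other genes higher (background 24.9% higher). These included Adh1 (6.97), Rarres1 (6.60), Fabp5 (6.53, 9815 against 108 CPM) and Awat2 (5.80), and 4 were lower, with Rbp2 (-3.76) the furthest. In OB1 against uHF.B, Lrat (3.08), Dhrs3 (1.00) and Ppard (0.73) were higher and 5 of 19 lower, beside 18.4% and 18.1% of all genes. OB3 exceeded OB1 in Rdh12 (1.41), and IB exceeded OB1 in Rdh1 (4.16), Rbp2 (3.45), Rdh12 (2.61) and Fabp5 (2.09). Among receptors the highest mean level was that of Rara in Langerhans cells (189 CPM), with Rarb (15.2 CPM) and Rxrg (8.40 CPM) highest in melanocytes. By role, the other genes with the highest mean level were Fabp5 (9815 CPM), Dgat1 (77.7 CPM), Dhrs4 (166 CPM) and Aldh1a7 (11.6 CPM), all in SG, Dhrs3 in DP (79.0 CPM) and Bco1 in HF cluster 12 (7.40 CPM). Of the other 2 enzymes of retinoic acid breakdown, Cyp26a1 did not pass a mean of 2.31 CPM in any type and Cyp26c1 was at 0.

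Over 90 sums of a cell type and library, the genes most like each member in log2(CPM + 1), by Pearson's r across 12210 genes, were given as a description, since the sums share libraries and cell types. Crabp2 was most like Spink5 (r = 0.86), Atp6v1c2 (0.85) and Cst6 (0.84), and Rarg was most like Stard10 (0.85), Osbpl5 (0.81) and Ptprf (0.80). Crabp1 was most like Col1a2 (0.83), Wif1 (0.81) and Col1a1 (0.80), of which Col1a1 and Col1a2 are collagen chains made by fibroblasts. For Stra6 they were Pcdh19 (0.71), Rassf10 (0.70) and Abi3bp (0.64), and for Cyp26b1 Tmem158 (0.64), Trim16 (0.63) and Arhgef28 (0.63). For Dhrs9 they were Ccdc9b, Sowahc and Homer2 (each 0.62), and for Aldh1a3 Slc26a9 (0.62), Ephb2 (0.57) and Pglyrp3 (0.55). The low counts of Aldh1a1 and Aldh1a2 gave Gabrp (0.58), Ly6c1 (0.54) and Bmp4 (0.53), and Ttr (0.49), Ddit4l (0.46) and Mme (0.45).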

How the data were processed

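Gene by cell matrices of raw UMI counts, made by the authors with Cell Ranger 6.1.2 on mm10 per the labels, were deposited for 6 libraries. They hold counts per gene, with no normalisation. Cells with 500 to 7000 genes and at most 10% mitochondrial UMIs were kept, and the cells with the highest Scrublet scores (scanpy 1.11.5) were removed as doublets, at a rate that rose with the number of barcodes, since the caller's own threshold marked few or none. Seurat 5.3.0 (2000 variable genes, 30 components, RPCA) clustered the cells at resolution 0.2, and hair follicle cells again at 0.4, leaving out 484 genes (41 retinoid and 443 cell cycle genes). A cluster was named where at least 3 of a type's fixed markers were raised, by the highest score among such types. It stayed unnamed where its 10 leading genes held more markers of another type than of that type.

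Counts were summed per library and cell type with at least 20 cells (10 in DP comparisons added later, 8 cells being given as values only). edgeR 4.0.16's quasi-likelihood test, with TMM and filterByExpr, compared types with the library as a block, and time with a spline of 3 df, leaving 2 residual df. P-values were adjusted by Benjamini and Hochberg over all genes tested. Each sum at a time point is 1 library, so p-values measure the spread between libraries, which edgeR partly shares over all genes. In simulated data, 45 of 80 genes changed by log2 1 along time in IFE.B sums (12793 genes) and 79 of 80 changed between uHF.SB and uHF.B sums (11160 genes) were recovered. The real fit on hours called 0 of 12950 genes in IFE.B, and how far the simulated recovery holds for the real sums was not tested. Intervals (95%, Poisson or Clopper-Pearson) cover counting error only, and a count of 0 allows 3 UMIs. Members and gene lists were chosen with earlier results of these data known. The 9 members were all reported; of the 32 others, each role was counted, and those named passed a comparison or had the highest level of their role (values of 1 listed gene are not reported here), and the 3 genes most alike were named for each member. DESeq2 1.42.0 and R 4.3.3 served for alternatives. Promoters were the 250 bases before RefSeq starts. The comparison of HF cluster 2, of clusters within a type and of DP, the interaction, the count of libraries and the motifs were added after the data had been seen.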

Additional observations from a re-analysis of the deposited data

Results flagged for a closer look

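The step from basal to suprabasal cells differed between upper hair follicle and interfollicular epidermis for 2 members, by an interaction test across the 6 libraries in edgeR. The log2 step in the upper follicle minus that in epidermis was -5.62 for Dhrs9 (SE 0.79, adjusted p = 4.1e-05) and -2.40 for Cyp26b1 (SE 0.63, adjusted p = 0.0098), each below 0 in 6 of 6 libraries. For Dhrs9 the suprabasal upper follicle side held 3 UMIs. When HF clusters 2 and 12 were counted as suprabasal upper follicle, the difference was -1.46 for Dhrs9 (adjusted p = 0.023) and -1.09 for Cyp26b1 (adjusted p = 0.112). So the size for Dhrs9 and the call for Cyp26b1 depended on which clusters were named.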

How the results depend on the processing

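No paired analysis was possible because each time point was 1 library and the labels give no replicate number shared by samples of different groups other than 1; the library was the block in every comparison of cell types. For the time course, 0 of 39 sums passed, also with RLE size factors, predicted doublets kept, equal cell numbers or HF clusters 2 and 12 joined to uHF.SB, whereas DESeq2 and no filter gave 4 each, log2(hours + 1) 5, the rank of time 4 and doubled cluster resolution 1. Leaving out 1 library gave 1 (without 16 h or 4 d) to 7 (without 0 h), with 1 residual df, and 5 without 4 h, 2 d or 6 d. For cell type comparisons 34 calls became 19 with equal cell numbers, where the other 15 had no value (all of IB, IRS3 and SG, with too few cells in a library, and Dhrs9 in uHF.SB against uHF.B and OB3 against OB1, too low to be tested), and 26 to 33 with a library left out. The comparisons added later gave 15 calls and 10 to 16 under the alternatives. The interaction gave 2 calls, and 1 with HF clusters 2 and 12 joined to uHF.SB, without 4 d or without 6 d. Cycling gave 3 calls, 2 with RLE or at least 4 UMIs, and 2 to 4 with a library left out. The order of cell types could not reach the threshold under any setting. The sign turned only for Dhrs9 in uHF.SB against uHF.B, at 0.49 with HF clusters 2 and 12 joined, since these clusters held most Dhrs9 UMIs of the joined sum. The cause of the other shifts was not tested. Over the single values and alternatives, 531 kept their direction and side of the threshold and 41 lost the threshold in the same direction. Members with few UMIs (Aldh1a1, Aldh1a2, Crabp1 outside DP) and types with few cells (DP, IB) limit what the depth can show.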

Other observations

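Cells with an Aldh1a3 UMI were set beside the others of their type. In uHF.SB at 16 h, 91.7% of the 24 cells with an Aldh1a3 UMI also had a Crabp2 UMI, against 52.1% of the 192 without, at median depths of 8762 and 8236.5 UMIs. In IB at 16 h the shares were 92.3% of 13 cells and 51.9% of the others, but the depths differed more, at 11005 and 6830 UMIs. In IB at 4 h they were 22.2% of 9 cells and 16.3% of the others. These are counts of cells in single libraries, with no test between conditions.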
